A study of Homo sapiens with 11 samples.

Results

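MTA2-only sites are stretches of chromatin where MTA2 was the sole subunit of the NuRD complex with a called peak. Peaks of CHD4, HDAC2, MTA2 and RBBP4 that shared at least 1 bp were merged into 28995 sites, and 2106 of them (7.26%, 95% Wilson interval 6.97 to 7.57%) held MTA2 peaks and no other. They made up 15.6% of the 13462 MTA2 peaks, each site was 1 MTA2 peak, and 2 lay off chromosomes 1 to 22 and X. The sites were selected on the 4 subunit peak lists themselves, so the absence of the other subunits and the heights of MTA2 are described and not tested. Absence means here that no peak passed the authors' calling threshold.

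NuRD is a chromatin complex that couples nucleosome remodelling to histone deacetylation. CHD4 supplies the remodelling ATPase, HDAC1 and HDAC2 the deacetylase activity, RBBP4 and RBBP7 contacts to histones, and the MTA proteins the scaffold on which deacetylase and histone-binding subunits assemble. MTA2 is a member of that scaffold family, whose paralogues are thought to form alternative versions of the complex. Ewing sarcoma is driven by the EWSR1::FLI1 fusion.

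The data were ChIP-seq peak lists from SKNMC (SK-N-MC), an established Ewing sarcoma line, labelled wildtype in every sample and untreated as far as the labels say. Each of 9 targets had 1 sample and 1 list, namely the subunits MTA2, HDAC2, RBBP4 and CHD4 (through a Flag tag, with no word in the labels on how it was introduced), the histone marks H3K4me3, H3K4me1, H3K27me3 and H3K27ac, and FLI1. With 1 list per target there is no replicate error, so no difference was tested, and each share comes with a 95% Wilson interval that covers counting over sites only. Read numbers behind the peaks are unknown. Of 10 genes that mark Ewing sarcoma cells, 8 had H3K4me3 at an annotated end, 7 had FLI1 within 100 kb, and 0 had an MTA2-only site within 1 kb. Over all protein-coding genes 4.42% had such a site, and 7.21% of those with H3K4me3, so 0 of 10 is no result about these genes.

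To show the sequences in which the words described next were counted, 9 promoters under MTA2-only summits are given as the 250 bases before the tabulated start, read 5′ to 3′ (RefSeq, GRCh38.p14). The first 5 hold the highest MTA2-only summits among tabulated promoters with both H3K4me3 and H3K27ac, and the other 4, taken after the counts were seen, the highest summits among promoters with a cyclic AMP response element. Capitals mark the word CGCACG on either strand and the element TGACGTCA.
EOLA2, chrX:149938492-149938741, minus strand: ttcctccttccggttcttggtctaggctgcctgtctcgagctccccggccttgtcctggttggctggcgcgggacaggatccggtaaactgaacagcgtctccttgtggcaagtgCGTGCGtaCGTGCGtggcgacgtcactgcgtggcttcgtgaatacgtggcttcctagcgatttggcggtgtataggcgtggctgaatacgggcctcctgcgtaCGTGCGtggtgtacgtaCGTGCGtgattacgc
UPF1, chr19:18831709-18831958, plus strand: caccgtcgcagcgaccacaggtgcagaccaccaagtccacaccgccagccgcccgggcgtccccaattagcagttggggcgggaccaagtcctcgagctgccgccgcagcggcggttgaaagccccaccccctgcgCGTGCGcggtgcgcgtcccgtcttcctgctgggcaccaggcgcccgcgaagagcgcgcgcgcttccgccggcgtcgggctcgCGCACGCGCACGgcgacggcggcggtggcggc
NPEPPS, chr17:47530858-47531107, plus strand: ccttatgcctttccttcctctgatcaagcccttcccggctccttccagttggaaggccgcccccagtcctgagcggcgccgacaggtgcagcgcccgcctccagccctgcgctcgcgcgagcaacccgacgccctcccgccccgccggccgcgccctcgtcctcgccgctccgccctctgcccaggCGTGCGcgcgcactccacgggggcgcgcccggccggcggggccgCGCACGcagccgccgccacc
RPL14, chr3:40457089-40457338, plus strand: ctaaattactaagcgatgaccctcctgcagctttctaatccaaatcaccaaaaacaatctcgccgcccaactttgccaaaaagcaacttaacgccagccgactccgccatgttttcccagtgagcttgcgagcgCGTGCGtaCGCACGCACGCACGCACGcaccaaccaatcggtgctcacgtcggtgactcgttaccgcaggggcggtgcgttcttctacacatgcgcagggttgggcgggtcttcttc
VCPKMT, chr14:50116573-50116822, minus strand: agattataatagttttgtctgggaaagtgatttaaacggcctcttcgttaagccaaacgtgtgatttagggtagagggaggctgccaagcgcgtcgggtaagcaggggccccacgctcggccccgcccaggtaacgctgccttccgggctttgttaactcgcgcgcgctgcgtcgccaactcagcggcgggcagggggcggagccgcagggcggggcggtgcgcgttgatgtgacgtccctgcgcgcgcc
ZNF10, chr12:133130377-133130626, plus strand: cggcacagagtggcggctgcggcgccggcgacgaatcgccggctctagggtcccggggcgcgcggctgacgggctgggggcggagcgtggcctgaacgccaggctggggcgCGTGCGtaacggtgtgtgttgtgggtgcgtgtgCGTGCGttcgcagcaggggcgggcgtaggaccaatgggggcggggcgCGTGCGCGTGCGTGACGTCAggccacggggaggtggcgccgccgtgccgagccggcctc
YTHDC2, chr5:113513444-113513693, plus strand: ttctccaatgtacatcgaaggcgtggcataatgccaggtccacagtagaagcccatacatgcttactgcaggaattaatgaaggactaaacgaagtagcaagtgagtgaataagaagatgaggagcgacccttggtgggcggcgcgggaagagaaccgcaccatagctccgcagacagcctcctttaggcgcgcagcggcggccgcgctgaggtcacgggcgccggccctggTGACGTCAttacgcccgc
NRBF2, chr10:63133078-63133327, plus strand: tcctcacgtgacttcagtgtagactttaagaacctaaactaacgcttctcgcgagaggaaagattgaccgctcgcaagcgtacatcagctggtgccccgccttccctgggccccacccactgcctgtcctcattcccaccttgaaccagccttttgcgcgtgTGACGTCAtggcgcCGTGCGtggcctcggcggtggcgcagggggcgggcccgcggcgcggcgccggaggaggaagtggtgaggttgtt
OPA3, chr19:45584803-45585052, minus strand: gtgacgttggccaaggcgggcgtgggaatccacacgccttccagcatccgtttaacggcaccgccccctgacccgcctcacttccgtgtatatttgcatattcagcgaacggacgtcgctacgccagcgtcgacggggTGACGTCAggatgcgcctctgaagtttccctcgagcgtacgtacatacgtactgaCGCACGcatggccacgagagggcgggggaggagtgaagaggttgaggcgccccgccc

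EOLA2, the highest MTA2 peak of all, has 4 copies of CGCACG, at bases 116, 124, 219 and 236 of the printed stretch, around a summit at base 168. RPL14, which encodes a protein of the large ribosomal subunit, has 5 copies at bases 135 to 155 beside a summit at base 132. UPF1, the helicase of nonsense-mediated decay, has copies at bases 137, 219 and 225 and its summit at base 198. NPEPPS, the puromycin-sensitive aminopeptidase, has copies at bases 187 and 231 and its summit at base 188. VCPKMT, a lysine methyltransferase of the VCP ATPase, has 0 copies. The zinc finger gene ZNF10 has 4 copies of CGCACG, and TGACGTCA starts at base 204. The element starts at base 233 in YTHDC2 (an RNA helicase and m6A reader) beside a summit at 225, at base 163 in NRBF2 (an autophagy adaptor) beside a summit at 182, and at base 139 in OPA3 (a mitochondrial protein) beside a summit at 154. NRBF2 and OPA3 also have 1 copy of CGCACG each, and YTHDC2 has 0.

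Summits of 492 MTA2-only peaks fell inside a tabulated promoter of 300 bases, from 250 before to 50 after a start, and each was assigned the promoter of the nearest start. To find words frequent under high MTA2-only peaks, all 2080 words of 6 letters (both strands) were ranked on odd-numbered chromosomes. The rank was by their share in 55 promoters of MTA2-only peaks with a fold enrichment of at least 10. From it was taken their share in 6238 H3K4me3 promoters not assigned to an MTA2-only peak. Promoters that hold such a summit but were not assigned to it stayed among the latter. GCACGC came first, at 56.4 and 21.3%. CGTCAC, at 50.9 and 17.5%, and CGCACG, at 52.7 and 20.1%, followed. CACGCA and ACGCAC came next, and all of these but CGTCAC are shifts of each other. On the remaining chromosomes, which had no part in this ranking, GCACGC was in 57.7% (44.2 to 70.1%) of 52 such promoters and in 21.4% (20.3 to 22.6%) of 4999 H3K4me3 promoters. CGCACG was in 61.5% (47.96 to 73.5%) and 20.04% (18.96 to 21.2%) of them, and CGTCAC in 40.4% (28.2 to 53.9%) and 17.4% (16.4 to 18.5%). For MTA2 peaks with another subunit and a fold enrichment of at least 10, CGTCAC was there in 32.7% (24.7 to 41.9%, n = 110). Over all chromosomes CGTCAC was in 45.8% (36.7 to 55.2%, n = 107) under MTA2-only peaks of that height. Under MTA2 peaks with another subunit it was in 29.9% (24.6 to 35.8%, n = 254). The 107 include the 55 that served in the ranking. Promoters had been read before the words were taken up, so the remaining chromosomes are no independent support. CGCACG was taken for further description after the shares and positions of these words had been seen on all chromosomes, so its values describe these promoters.

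Over all chromosomes CGCACG was in 21.9% (16.01 to 29.1%, n = 151) of the promoters of MTA2-only peaks of fold enrichment under 6 and in 57.0% (47.5 to 66%, n = 107) of those of at least 10, of which 55 had served in the ranking. On the remaining chromosomes alone the shares in MTA2-only promoters were 20.7, 27.5, 26.5 and 61.5% at a fold enrichment under 6, 6 to 8, 8 to 10 and 10 or more, with no steady rise below 10. GCACGC had 20.7, 30, 32.4 and 57.7% there. MTA2 peaks that shared their site with another subunit had CGCACG in 24.6% (n = 784) of promoters at a fold enrichment under 6. At 10 or more they had it in 54.7% (48.6 to 60.7%, n = 254). Their H3K4me3 promoters on odd-numbered chromosomes were among those the ranking compared against. The shares were 25.6% (n = 320) and 54.5% (45.2 to 63.5%, n = 110) on the remaining chromosomes alone. In both kinds of peak the share was thus highest in the highest class, and in each class the intervals of both kinds overlapped. The nearest copy of CGCACG was within 30 bp of the summit in 77.0% of the 61 promoters that hold it under MTA2-only peaks of fold enrichment of at least 10, at a median of 15.5 bp, the same median as for CACGCA. GC content moved little between the groups, with a median of 69% in promoters at a fold enrichment of at least 10 and 70% in those below. Within promoters under 65% GC the shares were 55% (39.8 to 69.3%, n = 40) and 23.01% (16.2 to 31.6%, n = 113). In promoters of 75% GC or more they were 60% (38.7 to 78.1%, n = 20) and 32.7% (24.3 to 42.3%, n = 101). The word is in 14.4% of all 22078 tabulated promoters of protein-coding genes.

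**Figure D1:**
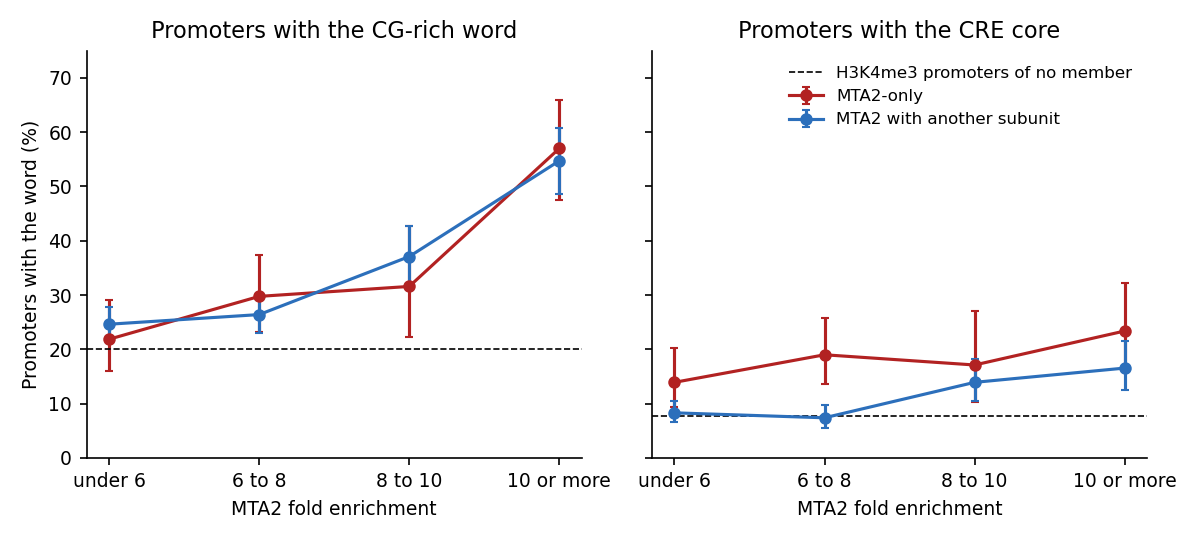
Share of promoters (%, y axis) that hold CGCACG (left) or the CRE core GACGTC (right), by the MTA2 fold enrichment of the peak whose summit they hold (x axis), for MTA2-only peaks (red) and MTA2 peaks with another subunit (blue). Bars are 95% Wilson intervals and the dashed line is the share in H3K4me3 promoters not assigned to an MTA2-only peak. CGCACG is at 57.0 and 54.7% in the highest class of both kinds, which for MTA2-only peaks includes 55 promoters used to rank the words. The CRE core is at 18.1% of MTA2-only promoters over all heights.

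Over all heights CGCACG was in 33.5% (29.5 to 37.8%) of promoters assigned to MTA2-only peaks and 31.0% (29.0 to 33.1%) of those assigned to other MTA2 peaks. These intervals overlapped. The next element was more frequent under MTA2-only summits than under other MTA2 summits. TGACGTCA, the cyclic AMP response element (CRE) read by CREB and ATF factors, was in 7.88% (5.94 to 10.4%) of the 571 promoters that hold an MTA2-only summit, counting every tabulated start. It was in 3.47% of 2220 promoters with a summit of MTA2 beside another subunit, 3.19% of 11696 H3K4me3 promoters and 2.25% of all promoters. Promoters with an RBBP4-only summit had 6.12% (3.99 to 9.26%, n = 327) and those with an HDAC2-only summit 2.83% (n = 955), and the RBBP4-only and MTA2-only intervals overlapped. Its core GACGTC was in 18.1% (14.9 to 21.7%) of the 492 promoters assigned to MTA2-only peaks and in 9.95% (8.70 to 11.4%) of the 1950 assigned to other MTA2 peaks. At a fold enrichment under 6 these shares were 13.9% (9.28 to 20.3%) and 8.29% (6.56 to 10.4%), and at 6 to 8 they were 18.99% (13.6 to 25.8%) and 7.38% (5.56 to 9.73%). At 10 or more they were 23.4% (16.4 to 32.2%) and 16.5% (12.5 to 21.6%). The intervals were separate in the class of 6 to 8 and overlapped in the other 3. The CRE share was 9.64, 10.5, 10.5 and 9.72% in MTA2-only promoters of GC content under 60, 60 to 65, 65 to 70 and 70 to 75%, and 0.741% (0.131 to 4.08%, 1 of 135) at 75% or more. In promoters with a summit of MTA2 beside another subunit it was 2.91, 5.37, 4.76, 2.52 and 2.64% in the same order, so that the order of the kinds turned at 75% GC or more. Where a CRE was present, its nearest copy lay a median of 39.5 bp from the MTA2-only summit, and within 30 bp in 46.2% of 39 peaks.

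Other elements were searched in the same way, on both strands. The YY1 element AAGATGGCG was in 6.13% of MTA2-only promoters and 3.96% of promoters with MTA2 beside another subunit. The CCAAT box (CCAAT) was in 38.9% (35.0 to 42.9%) and 30.8% (28.9 to 32.7%), against 35.4% of H3K4me3 promoters and 34.7% of all promoters. The GC box GGGGCGGGG was in 38.7 and 36.8%, against 29.0% of H3K4me3 promoters and 20.6% of all promoters. The ETS site CCGGAAGT was in 9.28% (7.17 to 11.9%) and 6.98%, against 9.11% of H3K4me3 promoters and 5.31% of all promoters. The GGAA repeat unit GGAAGGAA was in 1.93 and 3.24%, against 3.71% of all promoters. TATAAA was in 2.63% of MTA2-only promoters, against 9.50% of all promoters. A match is a run of letters and not a measured binding event, and the promoters of 1 gene can overlap.

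MTA2-only peaks were of ordinary height on the whole, with some of them at the very top of the MTA2 list. Their fold enrichment at the summit had a median of 6.70 (quartiles 5.60 to 7.92, range 2.71 to 35.7), and MTA2 peaks with another subunit had 6.63 (5.39 to 8.29, up to 25.6). Their −log10 p had a median of 15.5 against 18.6 and their width 259 bp against 355 bp. The 3 highest peaks of the list by fold enrichment were MTA2-only, and so were 29 of the first 100, of which 28 lay near a gene end. MTA2-only peaks were 15.6% of the whole list, 13.5% of the first 1000 and 11.6% of the first 2003. By −log10 p they were 3 of the first 10 and 30 of the first 101. A gene end here is either annotated end or a tabulated start of a protein-coding gene, and near means within 1 kb.

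Near gene ends MTA2-only peaks were 29.2% (24.3 to 34.6%) of the 298 highest MTA2 peaks, the uppermost of 20 groups of like size when MTA2 peaks were ordered by fold enrichment. Away from them they were 3.72% (2.23 to 6.15%) of 376 in the same group. In the tenth group the shares were 18.7% (13.9 to 24.7%) and 21.1% (17.6 to 24.9%). Among the 756 MTA2-only sites near a gene end 17.2% had a fold enrichment of at least 10, as did 10.6% of MTA2 peaks with another subunit there. Away from gene ends these were 3.48 and 11.4%, the reverse order. MTA2 peaks with HDAC2 alone also had the larger share near gene ends, at 14.8% against 6.27% away. At sites with all 4 subunits the shares were 8.89% near and 16.4% away. Marks moved with height too. In the uppermost of 5 groups of MTA2-only sites by fold enrichment H3K4me3 was at 51.1% (46.3 to 55.8%) and H3K4me1 at 16.4% (13.2 to 20.2%), and in the other 4 groups at 28.5 to 34.4% and 29.5 to 31.1%. The heights come from the list that chose the sites and are a description.

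**Figure D2:**
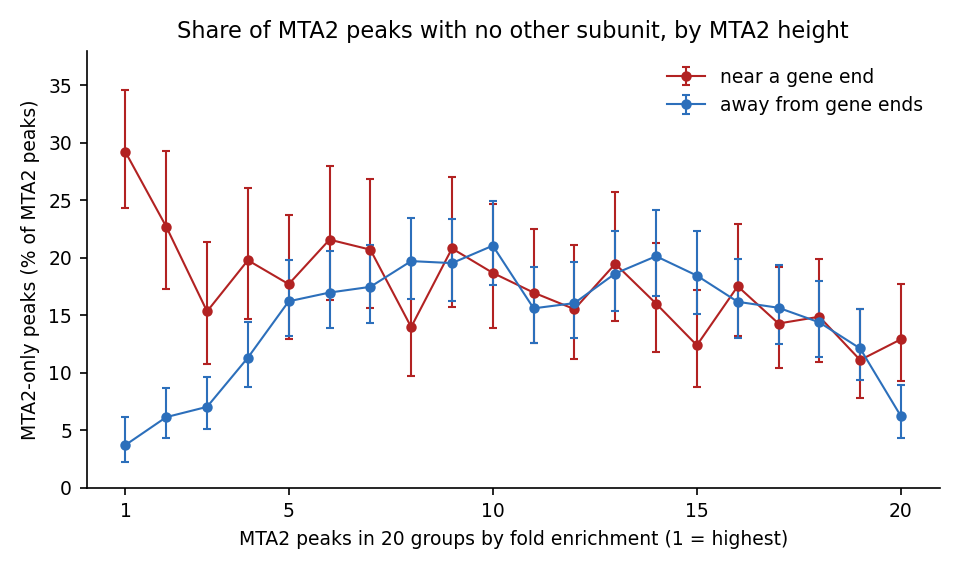
MTA2-only peaks as a share of MTA2 peaks (%, y axis) in 20 groups of MTA2 peaks by fold enrichment (x axis, 1 is highest), near a gene end (red) and away (blue), with 95% Wilson intervals. The 2 lines part at the left, at 29.2 and 3.72%, and run together through the middle groups.

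The 10 highest MTA2-only peaks all carried H3K4me3. EOLA2, at chrX:149938230-149938852, had a fold enrichment of 35.7 and a −log10 p of 136, the highest of the MTA2 list on both scales. DNAJC5, a synaptic vesicle co-chaperone, followed with 28.9 and 101, and NAF1, an assembly factor of H/ACA RNPs, with 26.9 and 80.2. UPF1, NPEPPS, RPL14 and VCPKMT had 24.7, 23.8, 23.7 and 22.6. UNC79, a subunit of the NALCN sodium leak channel, FOSB, a member of the AP-1 family, and VAPB, an endoplasmic reticulum tether, had 21.2, 21.2 and 21. The summit lay 26 to 121 bp upstream of the tabulated start at 8 of the 10, 0.05 kb from an annotated end of NAF1, for which no start was tabulated, and inside FOSB 1274 bp downstream of its start.

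H3K27ac overlapped 8 of the 10, with DNAJC5 and FOSB as the exceptions. H3K4me3 was near the top of its own list at VCPKMT (fold enrichment 32.6) and low in it at DNAJC5 (6.87) and FOSB (8.05). The nearest HDAC2 peak was 0.001 kb from the edge of the UNC79 site, 0.037 kb from NAF1, 0.626 kb from NPEPPS and 1.45 kb from EOLA2, but 41.4 kb from UPF1, 48.4 kb from RPL14, 114 kb from VCPKMT and 231 kb from VAPB. BTAF1, an ATPase that acts on the TATA-binding protein, and API5, an inhibitor of apoptosis, followed among promoters with both marks at 19.4 each, and for API5 the nearest peak of any other subunit was 257 kb away.

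By chromatin, the most common settings of MTA2-only sites were promoters with H3K4me3 and distal sites with no mark. Near a gene end with H3K4me3 lay 637 (30.2%), and 119 (5.65%) lay near an end without it. Away from gene ends 100 had H3K4me3, 307 (14.6%) had H3K27ac without H3K4me3, 365 (17.3%) had H3K4me1 alone, 1 had H3K27me3 alone and 577 (27.4%) had none of the 4 marks. Over all sites H3K27ac overlapped 36.1% (34.1 to 38.2%), H3K4me3 35.0% (33.0 to 37.1%), H3K4me1 27.3% (25.4 to 29.2%) and H3K27me3 0.095% (2 sites). None of the marks overlapped 30.9% (29.0 to 32.9%). These lists were not used to choose the sites.

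H3K27ac was less frequent at MTA2-only peaks than at MTA2 peaks with HDAC2 or with all 3 other subunits, both at promoters and away from them, but not less frequent than at the 329 MTA2 peaks with RBBP4 alone (34.7%, 29.7 to 39.9%). Near gene ends it overlapped 53.2% (49.6 to 56.7%) of MTA2-only peaks, 63.1% (60.2 to 66.0%) of MTA2 peaks with HDAC2 alone and 78.6% (76.1 to 80.8%) of those at sites with all 4 subunits. Away from gene ends the shares were 26.5% (24.2 to 28.9%), 32.2% (29.8 to 34.8%) and 54.9% (53.4 to 56.5%). MTA2-only peaks were the narrowest of the 3, so shares were also taken around summits. Within 250 bp of the summit H3K27ac was present at 61.9, 67.9 and 82.5% near gene ends and at 30.96, 35.8 and 55.5% away, the same order. Among distal MTA2 peaks of 200 to 300 bp it was 21.7% (19.1 to 24.7%), 27.8% (24.5 to 31.4%) and 36.7% (33.2 to 40.3%). None of these differences could be tested against replicates.

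H3K4me1 depended on how the overlap was counted. Away from gene ends it overlapped 40.4% (37.8 to 43.0%) of MTA2-only peaks and 48.3% (46.8 to 49.9%) of MTA2 peaks with all 4 subunits. Within 250 bp of the summit the shares were 50.7% (48.1 to 53.4%) and 48.4% (46.8 to 49.9%). Among distal peaks of 200 to 300 bp the order was the opposite, at 39.8% (36.6 to 43.2%) and 26.1% (22.996 to 29.4%). Where a distal MTA2-only peak touched an H3K4me1 peak, its summit lay inside that peak in 63.5% (59.4 to 67.4%) of 545 cases. At sites with all 4 subunits the summit was inside in 17.9% (16.3 to 19.7%) of 1951. At peaks of 200 to 300 bp these were 64.99% (59.7 to 69.9%) and 42.7% (35.8 to 49.9%). Distal MTA2 peaks with HDAC2 alone overlapped H3K4me1 much as MTA2-only peaks did, at 41.7% (39.1 to 44.4%). Within 250 bp of the summit they were at 52.8%, and among peaks of 200 to 300 bp at 36.9% (33.3 to 40.8%). Their summit was inside in 44.9% (40.8 to 49.0%) of 566, and in 53.2% (46.8 to 59.5%) at 200 to 300 bp. MTA2-only summits that touched H3K4me1 thus lay inside its peaks more often than 4-subunit summits did, with HDAC2 and MTA2 in between.

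**Figure D3:**
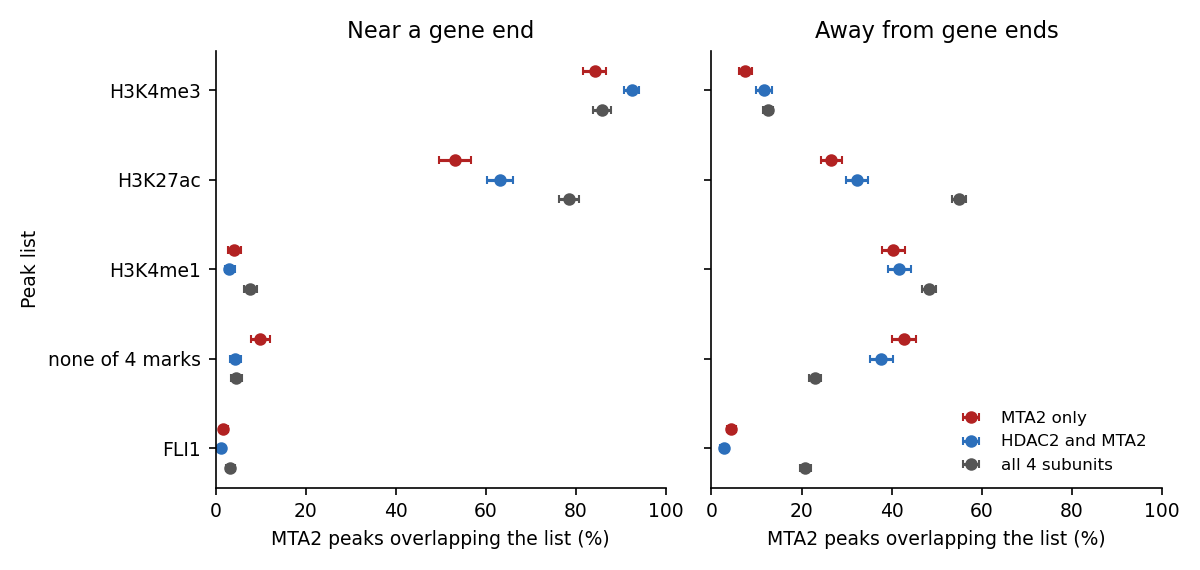
Share of MTA2 peaks that overlap each list or none of the 4 histone marks (%, x axis), near a gene end (left) and away from it (right), for sites with MTA2 only (red), HDAC2 and MTA2 (blue) and all 4 subunits (grey), with 95% Wilson intervals. H3K27ac steps from 53.2 to 63.1 and 78.6% near gene ends and from 26.5 to 32.2 and 54.9% away.

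Sites with a different lone subunit differed in part in their surroundings. Of 7126 HDAC2-only sites 52.7% lay near a gene end, of 1505 RBBP4-only sites 38.5% and of 2493 CHD4-only sites 9.95%, with MTA2-only sites at 35.9% (33.9 to 37.97%). H3K4me1 was at 14.7% of HDAC2-only, 6.45% of RBBP4-only and 34.6% of CHD4-only sites. In the share near gene ends MTA2-only sites were thus close to RBBP4-only sites, and in H3K4me1, at 27.3%, closer to CHD4-only sites. H3K27ac, at 36.1% (34.1 to 38.2%) of MTA2-only sites, was at 37.4% (36.3 to 38.5%) of HDAC2-only sites. It was at 32.4% (30.6 to 34.3%) of CHD4-only and 26.7% (24.5 to 29.0%) of RBBP4-only sites. A low share of H3K27ac was thus not particular to MTA2-only sites.

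Distal MTA2-only sites were lower and included few strong peaks. The highest with H3K27ac and no H3K4me3 was in SHISA9, which encodes an AMPA receptor partner, at chr16:13262351-13263087, with a fold enrichment of 13.8 and no other subunit within 458 kb. The next lay in SHQ1 (another H/ACA assembly factor, 13.0), 173 kb from H3-7 (11.5) and 128 kb from RBM43 (11.3). Among sites with no mark and no FLI1, at any distance from a gene, the highest was at TCFL5, a helix-loop-helix factor, at chr20:62861897-62862349, with 18.6 and a summit 317 bp upstream of the start. PIP4K2A, a phosphoinositide kinase, had 14.7, and ARRDC1, an arrestin-domain protein, 13.7, also upstream of their starts, while sites 22.8 kb from the end of LOC124904395 and 22.3 kb into PDE4DIP had 16 and 14.3. For the unmarked distal sites as a group the median was 6.75, above 6.36 for distal H3K27ac sites and 6.61 for H3K4me1 sites, within quartiles that overlap widely.

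FLI1 met MTA2-only sites rarely, though more often than sites of any other lone subunit. Its peaks overlapped 70 (3.32%, 2.64 to 4.18%), against 16.7% (15.8 to 17.8%) of MTA2 peaks at sites with all 4 subunits and 2.02% (1.53 to 2.66%) of those with HDAC2 alone. It was at 1.08% (0.745 to 1.57%) of CHD4-only, 0.664% (0.361 to 1.22%) of RBBP4-only and 0.463% (0.330 to 0.650%) of HDAC2-only sites. The 69 FLI1 peaks at MTA2-only sites were 4.42% of the FLI1 list and had a median −log10 p of 15.6, against 19.01 for the whole list. H3K27ac overlapped 36 of the 70 and none of the marks 29. The highest were the SHISA9 and SHQ1 sites, VRK1 (12.6), FAM193A (11.1) and a site 27.1 kb from HERPUD2 (11.1). H3K27me3, the Polycomb mark, overlapped a site at the start of TMOD2 (7.23), which also had H3K4me3, and 1 that lay 7.51 kb from FOXF2 (7.04).

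At starts, MTA2-only summits sat just upstream. Of 611 summits within 1 kb of a tabulated start 81.3% (78.1 to 84.2%) were upstream, with a median position of -75 bp (negative is upstream) and quartiles of -147.5 and -20 bp. MTA2 summits at 4-subunit sites were upstream in 76.5% (73.5 to 79.1%) of 879, at a median of -106 bp. Another protein-coding gene started on the opposite strand within 1 kb at 11.5% (9.24 to 14.3%) of 616 MTA2-only sites near a start, 8.54% (6.84 to 10.6%) of those with HDAC2 and MTA2 and 6.66% (5.22 to 8.46%) of those with all 4 subunits. Chromosome 8 has no entry in the starts table, so its sites enter by gene ends only.

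**Figure D4:**
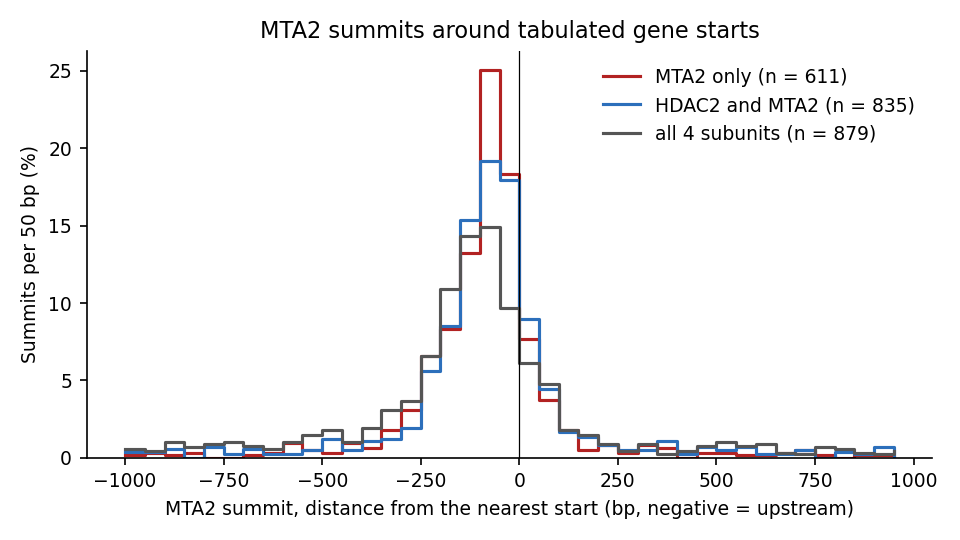
Position of MTA2 summits (x axis, bp from the nearest tabulated start, negative is upstream) as a share of the summits within 1 kb (%, y axis, steps of 50 bp), for sites with MTA2 only (red), HDAC2 and MTA2 (blue) and all 4 subunits (grey). The medians are -75, -71 and -106 bp, and the red line reaches the greatest share in a step, 25.04%, against 19.2 and 14.9%.

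Of 20037 protein-coding genes 885 (4.42%) had an MTA2-only site within 1 kb of an end or start, and of the 11388 genes with H3K4me3 near an end 821 (7.21%) did. Among ribosomal protein genes 5 of 32 in a fixed list (15.6%, 6.86 to 31.8%) had one. Of 101 genes grouped by RPL and RPS names 11 (10.9%, 6.19 to 18.5%) did. That group counts RPS10 and RPS10-NUDT3 apart, so its genes are not all separate and its interval is only a description. RPS9 (fold enrichment 14.2) and RPS3 (9.83) of the small subunit were the highest on the fixed list, and RPL5 of the large subunit had 4.58. Both intervals lie above 4.42% and include the 7.21% of genes with H3K4me3, a mark that all 32 genes of the list and 90 of the 101 had. Of NuRD subunit genes 2 of 15 had a site, MBD3 (9.88), the methyl-CpG-binding-domain subunit, and HDAC1 (5.88), a deacetylase of the complex. Of p53 pathway genes 2 of 24 did, BAX (12.9) and PMAIP1 (9.05), both inducers of apoptosis.

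Basal transcription and chromatin genes had 3 of 30, among them the acetyltransferase gene CREBBP at 18.5 and −log10 p 88.4 and its paralogue EP300 at 3.75. DNA damage genes had 2 of 25, XRCC6 (Ku70, 8.39) and RPA2 (a single-strand DNA-binding subunit, 6.84). Cell cycle and replication genes had 1 of 33, the helicase gene MCM2 (9.38). Genes activated by the fusion had 1 of 34, the kinase gene VRK1 (12.6), which also had FLI1. Genes repressed by the fusion had 2 of 26, JUN (8.04) and the phosphatase gene DUSP1 (6.13), and neuronal and neural crest genes 1 of 30, the homeobox gene MSX1 (10.3). The intervals of the 8 lists other than the ribosomal one include the background of 4.42%. Among larger families 30 of 517 ZNF genes (5.80%, 4.09 to 8.16%) had a site, 17 of them among the 250 on chromosome 19. A site was found at 8 of 386 solute carrier genes (2.07%, 1.05 to 4.04%) and at 0 of 392 olfactory receptor genes, which allows a share of up to 0.970%. Of the olfactory receptor genes 1 had H3K4me3 and 1 had any MTA2 peak. These families were chosen after the sites were known.

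MTA2-only sites were mostly far from the other subunits. The nearest CHD4, HDAC2 or RBBP4 peak lay a median of 16.4 kb away, within 1 kb at 16.96% of sites, and it was HDAC2 at 61.1% (58.97 to 63.1%). The HDAC2 list is also the longest of these, with 20633 peaks against 13288 for CHD4 and 13725 for RBBP4. How far list length bears on the 61.1% was not tested. Near gene ends 29.4% had another subunit within 1 kb, and away from them 10%. Sites with no mark away from gene ends were the most isolated, with a median of 30.4 kb and 37.3% more than 50 kb from any other subunit. At the limit of the rule, 54 MTA2-only sites had another subunit 1 to 50 bp away (median fold enrichment 6.27), and 95 MTA2 peaks shared only 1 to 50 bp with another subunit (6.45). H3K4me3 overlapped 72.2% of the former and 73.7% of the latter. Of the H3K4me3 peaks that hold an MTA2-only site 21.3% (18.6 to 24.3%) also hold another subunit, as do 18.5% (16.01 to 21.4%) of the H3K27ac peaks.

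**Figure D5:**
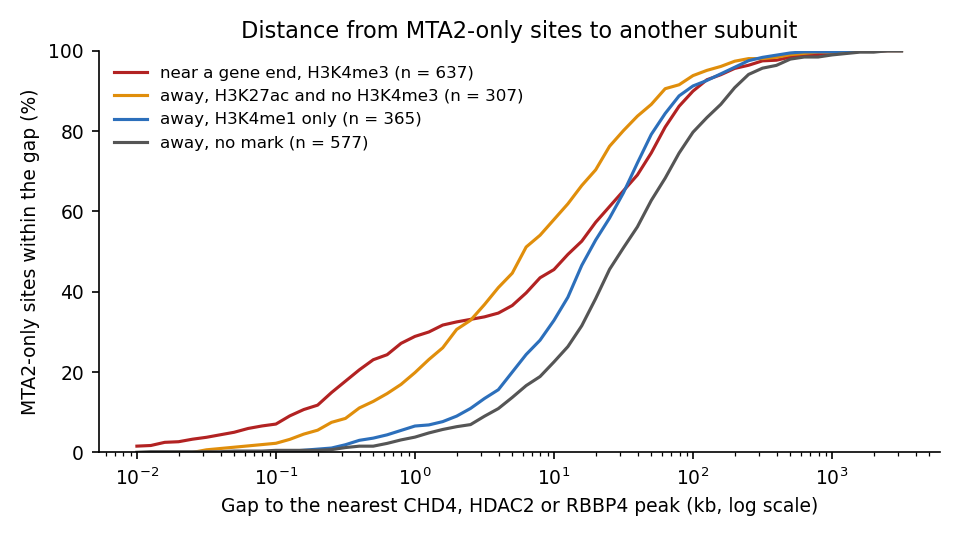
Cumulative share of MTA2-only sites (%, y axis) by the gap to the nearest CHD4, HDAC2 or RBBP4 peak (x axis, kb, log scale), in 4 chromatin groups. At 1 kb the line for sites near a gene end with H3K4me3 is at 28.9% and that for unmarked distal sites at 3.81%.

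By chromosome, MTA2-only peaks were 28.4% (23.1 to 34.4%) of MTA2 peaks on X and 27.3% (23.4 to 31.5%) on 19, and 10.5% (8.05 to 13.7%) on 15. Near gene ends the shares reached 47.2% on X and 36.6% on 19, against 9.76% on 15. Fold enrichment at comparable significance moved with this share. Among MTA2 peaks of −log10 p 12 to 18 the median fold enrichment was 7.14 on X and 5.44 on 15, and over 23 chromosomes it had a Pearson r of 0.73 and a Spearman rho of 0.75 with the MTA2-only share. The chromosomes share 1 library, and on 19 the median was 6.06, in the middle of the range. How far it bears on the shares was not tested.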

How the data were processed

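ChIP-seq was carried out on 9 targets and 2 inputs in SK-N-MC. The inputs had no peak list and were not analysed here. Per the submitters' processing notes, the tools were BWA 0.7.17, Trimmomatic 0.36, bedtools 2.27.1, FastQC 0.11.7, deepTools 3.2.1 and SAMtools 1.9, and the build was GRCh38. The deposited peak names carry MACS2. The sources used here give neither its version nor the control library. Each peak has a fold enrichment, which is a ratio to local background, and a −log10 p and −log10 q computed by the authors' caller. These are the authors' values, used only to rank, filter or describe peaks within a list. Deposited score columns went unused. The lists of RBBP4 and FLI1 reach down to −log10 p of 7.01 and 5.02, lower than the 9 or so at which each other list ends. Depth is unknown.

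Overlap required 1 bp. Positions are 1-based on GRCh38. Genes and promoters came from RefSeq tables of GRCh38.p14 with 20037 protein-coding genes, of which 15843 had a tabulated start. Merging, gaps and intervals were computed with Python 3.11.15, pandas 2.3.3, numpy 2.4.6 and scipy 1.17.1, and checked on simulated peaks. Confidence intervals are 95% Wilson intervals and cover counting error only. The summit position of 1 MTA2-only peak lay past its end as deposited.

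The sites, the 9 gene lists (248 symbols, all 248 matched) and the 12 motifs were chosen with earlier results of these data known, and the 6-letter words after the promoters were read. Named sites were the 10 highest by fold enrichment, the 10 highest near gene ends with H3K4me3 and H3K27ac, the 5 highest distal with H3K27ac, with FLI1, with H3K27me3 and with no mark or FLI1, and up to 6 list members each. Some sites that this rule names are not reported here. The alternatives were stricter peak limits, other definitions of a lone subunit, summit overlap and a 2.5 kb window.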

Additional observations from a re-analysis of the deposited data

How the results depend on the processing

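No paired analysis was possible because each target had 1 sample. The number of MTA2-only sites was 1886, 2136, 1845 and 2481 with all 4 subunit lists limited to −log10 p of 15 and above, with RBBP4 held to 9, with no other subunit within 500 bp, and with another subunit counted only at an overlap of 50% of the shorter peak. It was 1191 with MTA2 peaks of −log10 p of at least 15. In these 5 settings the median fold enrichment was 7.58, 6.69, 6.73, 6.68 and 7.67. Of these medians 7.58 and 7.67 lay outside the main interval of 6.58 to 6.79. Over 9 main results 32 of 59 alternatives moved beyond the limit set for them, which for shares was the interval, and 27 did not. The 59 include some chosen after seeing the data. With the limit of 15 in all lists H3K27ac was at 41.0%, H3K4me3 at 40.4%, no mark at 27.6% and gene ends at 40.8%. With no other subunit within 500 bp they were 32.2, 30.7, 33.7 and 31.4%. With the overlap of 50% they were 40.4, 41.6, 27.5 and 41.9%, and H3K4me1 was at 24.3%. With MTA2 peaks of at least 15 they were 38.2, 43.6, 27.5 and 44.4%, and H3K4me1 was at 23.3%. Requiring the MTA2 summit inside the peak gave H3K27ac 19.5%, H3K4me3 23.5%, H3K4me1 17.3%, H3K27me3 0.0%, FLI1 2.33% and no mark 52.9%. The gene end share was 40.0% within 2.5 kb.

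Chosen after seeing the data, annotated ends alone gave a gene end share of 33.3%, and leaving out chromosomes 19 and X gave H3K4me3 32.7%, H3K4me1 29.7% and gene ends 33.3%. The count of MTA2-only peaks among the first 100 was 41 with the limit of 15 in all lists and 25 to 35 in the other 4 settings. On 1 promoter per peak the CRE was at 7.72% and ranged from 6.62 to 8.82%, GACGTC from 16.7 to 20.6% and CGCACG from 33.5 to 38% over the 5 settings. The cause of these shifts was not tested. With 1 list per target and unknown depth, a subunit missed by the caller cannot be told apart from a subunit that was absent.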
